A study of Mus musculus with 8 samples.

Results

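The genes described here are 10 that restrain signalling from the T cell receptor (TCR): the protein tyrosine phosphatases Ptpn22, Ptpn2, Ptpn6 and Ptpn7, the ubiquitin ligases Cblb and Cbl, the diacylglycerol kinases Dgka and Dgkz, and the adaptors Ubash3a and Pag1. They were taken by gene name, and all 10 were found among 19673 listed genes and among the 16120 genes with a mean normalized value of at least 10 that were tested. The list, led by Ptpn22, was selected on the differences between KO and WT in these same libraries. Differences of the 10 genes between the groups are therefore given as a description, without a test.

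The libraries were made from live cells carrying CD45, CD3e and CD8 that were sorted from tumours of Py8119, a mouse mammary carcinoma cell line, grown in mice. The hosts of the KO group were labelled Mtdh (metadherin) knockout and those of the WT group wild type. Each group had 4 biological replicates, called KO or WT libraries 1 to 4 here. Mtdh status was that of the host, whose sorted cells were profiled, and the same tumour line was injected in both groups. Strain, age, time of harvest and kind of Mtdh allele are not given in the sources used here.

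When a TCR binds its ligand, the kinases Lck and Fyn phosphorylate the receptor complex, Zap70 is recruited, and the scaffold Lat assembles enzymes that release diacylglycerol and calcium. The brakes act at successive steps of this cascade: phosphatases strip the kinases and their substrates, Cbl family ligases tag active proteins with ubiquitin, and diacylglycerol kinases turn diacylglycerol into phosphatidic acid. Several of these brakes are also made by macrophages, B cells and other leukocytes.

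Values are read counts per gene that the authors normalized with DESeq2, and differences are in log2(value + 1), KO minus WT. Mtdh itself was at 5118, 4622, 2538 and 3341 in KO libraries 1 to 4, against 9324, 12745, 6407 and 7974 in WT libraries 1 to 4, and the groups did not overlap (log2 difference -1.23, exact two-sided permutation p = 0.0286, the smallest that 70 arrangements allow). The KO libraries thus still held 42.6% of the WT level, on an estimated 30.1 to 87.8 fragments, and which part of the gene was deleted is not given in the sources used here. The limma adjusted p for Mtdh was 0.0400, and without single libraries it ranged from 0.0247 to 0.241, above 0.05 without KO library 2, 3 or 4 or WT library 1 or 2. The depth was estimated at 16400000 to 29600000 reads per library, copied from an estimated 111000 to 636000 cDNA fragments, so that a single fragment was worth a value of 23.4 in WT library 3 and 154 in KO library 2. Lyz2, a macrophage gene that a CD8 sort should lack, lay between 75242 and 211543, above Cd8a at 1565 to 13355. In such bulk samples fewer cells of a type and less RNA per cell cannot be told apart.

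Ptpn22 and Cblb were the brakes that stood highest in KO, at 2.48 and 1.96 times the WT level as folds from the log2 differences, while the other 8 lay between 0.770 and 1.71 times. Ptpn22 was the only one of the 10 whose KO and WT libraries did not overlap, against 2.02% of all tested genes with every KO library above every WT library and 2.09% with every KO library below. A limma adjusted p of 0.05 was passed by 0.236% of all tested genes, 0.211% higher and 0.0248% lower in KO, and the set of these genes held 1 of the 10 brakes, Ptpn22. That count was 0 to 2 when single libraries were left out, and 0 to 2 under the other settings tried. Ptpn22 itself passed in 1 of the 8 runs that left out a single library and in 4 of the 10 other settings. Since the list was drawn up on this contrast, nothing is read from any of these counts. The median log2 difference of the 10 brakes was 0.26, beside -0.12 for all genes tested, and 9 of the 10 were above 0, against 43.4% of all genes. Without WT library 2, 5 of the 10 were above 0 and the median was 0.05. With KO library 1 and WT library 2 both left out, an omission chosen after seeing the data, 9 were above 0 and the median was 0.24.

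**Figure D1:**
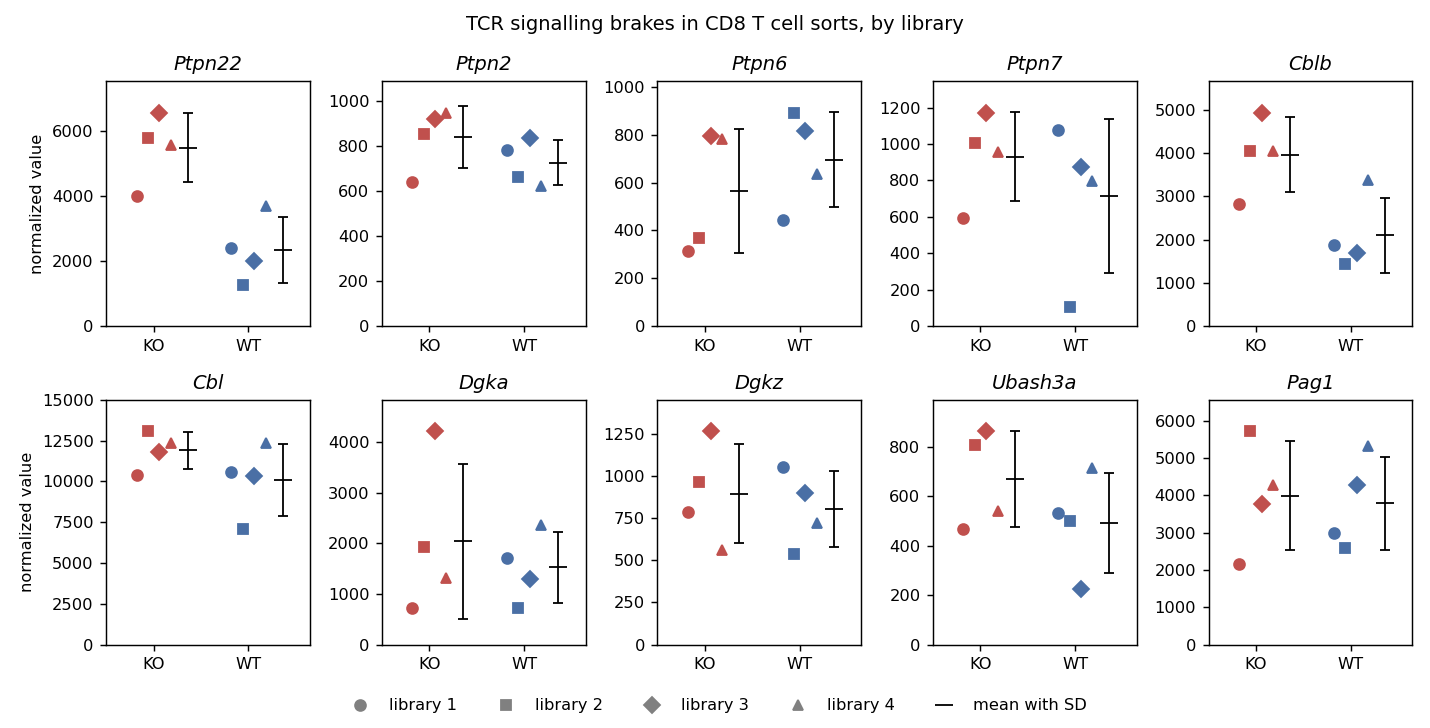
Normalized values, as deposited by the authors, of the 10 brakes in each library, with KO left of WT, a marker shape per library number, and the mean with its SD (n = 4 per group). Ptpn22 is at 4001 or more in KO libraries and at 3675 or less in WT libraries, and the other 9 genes overlap between the groups.

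Ptpn22 encodes the phosphatase PEP, which removes activating phosphates from Lck, Fyn and Zap70 and works with the kinase Csk. The gene (ENSMUSG00000027843) spans 103767111 to 103819563 on the plus strand of chromosome 3 in mm39. Its normalized value was 4001, 5773, 6539 and 5572 in KO libraries 1 to 4, against 2391, 1261, 2001 and 3675 in WT libraries 1 to 4. The lowest KO library, library 1, was close to the highest WT library, library 4, and WT library 2 was the lowest of all 8. The means were 5471 ± 1065 for KO libraries and 2332 ± 1010 for WT libraries (SD, n = 4 each), a log2 difference of 1.31 (SE 0.27). It stayed between 1.05 and 1.56 with each library left out in turn. The values rest on an estimated 37.6 to 159 fragments in KO libraries and 19.6 to 112 in WT libraries.

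RefSeq lists 2 transcription starts for Ptpn22, and the 250 bases before each are shown because Ptpn22 carries the largest difference among the brakes; capitals mark matches on either strand to the letters searched, which were TGANTCA for AP-1, GGAAA for the NFAT core, CGGAAG for ETS and TGTGGT for RUNX factors. The stretches are from GRCm38.p6, plus strand, at chr3:103859545-103859794 for the upstream start and chr3:103860027-103860276 for the downstream start.
Ptpn22 upstream start: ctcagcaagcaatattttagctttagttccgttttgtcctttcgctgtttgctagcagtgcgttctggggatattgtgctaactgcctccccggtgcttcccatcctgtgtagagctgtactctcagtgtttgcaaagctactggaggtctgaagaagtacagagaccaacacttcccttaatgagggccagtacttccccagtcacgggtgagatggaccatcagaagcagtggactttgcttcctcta
Ptpn22 downstream start: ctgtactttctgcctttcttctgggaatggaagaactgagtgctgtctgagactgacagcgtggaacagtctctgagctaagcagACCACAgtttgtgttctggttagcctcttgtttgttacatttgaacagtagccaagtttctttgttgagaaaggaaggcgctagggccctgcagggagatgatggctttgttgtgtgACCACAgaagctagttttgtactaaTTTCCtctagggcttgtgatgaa

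The upstream stretch held none of the 4 motifs. The downstream stretch held 2 RUNX matches and 1 NFAT match, and it was the only one of 14 stretches from 8 brakes that held the RUNX letters, which occurred in 14.0% of 32851 promoters of that length. The NFAT core was in 9 of the 14 stretches, against 55.6% of all promoters, ETS letters were in 2 of the 14, against 13.6%, and AP-1 letters in none, against 6.75%. Stretches on chromosome 18, where Ptpn2 lies, were left out of those examined, and none was available for Pag1. The observed over expected CpG ratios of the Ptpn22 stretches were 0.331 and 0.158, beside a median of 0.373 for all promoters. Ptpn6 at 0.282, Ubash3a at 0.271, Ptpn7 at 0.350 and 0.258 and a Dgka stretch at 0.320 were also below that median. Cblb at 0.648, Cbl at 1.03, Dgkz at 0.895 and 0.386 and the other Dgka stretches at 0.516 to 0.763 were above it. A match to letters is a description of the sequence, not a binding site.

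The other 3 phosphatases overlapped between the groups. Ptpn2, which acts on Lck and Fyn and on JAK and STAT proteins of cytokine signalling, was at 640, 851, 917 and 946 in KO libraries 1 to 4, against 781, 661, 834 and 624 in WT libraries 1 to 4. Its KO libraries 2, 3 and 4 were above all WT libraries and KO library 1 was among the lowest, for a log2 difference of 0.20 (SE 0.31). Ptpn6 encodes SHP-1, an SH2 domain phosphatase that inhibitory receptors recruit. It was the only brake lower in KO, at 315, 368, 795 and 781 in KO libraries 1 to 4, against 444, 891, 814 and 637 in WT libraries 1 to 4. Both low values, in KO libraries 1 and 2, rest on an estimated 4.04 and 2.39 fragments, and the log2 difference was -0.38 (SE 0.41). With KO library 1 and WT library 2 left out together the Ptpn6 difference was -0.0032. Ptpn7 encodes HePTP, a phosphatase of the MAP kinases Erk and p38. It was at 592, 1005, 1170 and 954 in KO libraries 1 to 4, against 1078, 102, 874 and 798 in WT libraries 1 to 4. The WT library 2 value corresponds to 1.58 fragments, and without that library the log2 difference was -0.01 in place of 0.77 (SE 0.55).

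Cblb and Cbl are RING-type ubiquitin ligases, of which Cblb is the one best known for setting the threshold of T cell activation and the need for CD28 costimulation. Cblb (ENSMUSG00000022637, chromosome 16, 51851588 to 52028411, plus strand) was at 2822, 4051, 4934 and 4054 in KO libraries 1 to 4, against 1876, 1436, 1696 and 3378 in WT libraries 1 to 4. Its groups overlapped through KO library 1 and WT library 4, and the other 3 KO libraries were above all WT libraries. The means were 3965 ± 868 for KO libraries and 2097 ± 873 for WT libraries (SD, n = 4 each), and the log2 difference of 0.97 (SE 0.27) ranged from 0.82 to 1.23 with each library left out. Cbl was the most abundant brake, at 10368, 13054, 11792 and 12360 in KO libraries 1 to 4, against 10555, 7097, 10341 and 12327 in WT libraries 1 to 4. WT library 2 was the lowest, only KO libraries 2 and 4 were above all WT libraries, and the log2 difference was 0.26 (SE 0.20) with all libraries and 0.10 without WT library 2.

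The diacylglycerol kinases had differences smaller than their errors. Dgka, known for its high level in resting T cells, was at 714, 1924, 4213 and 1306 in KO libraries 1 to 4, against 1717, 722, 1289 and 2366 in WT libraries 1 to 4. It spread widely in both groups, with the highest value in KO library 3, and the log2 difference was 0.25 (SE 0.43) with all libraries and -0.20 without KO library 3. Dgkz was at 789, 965, 1264 and 564 in KO libraries 1 to 4, against 1054, 536, 900 and 720 in WT libraries 1 to 4. Its log2 difference was 0.14 (SE 0.34), and it was below 0 with sample weights (-0.15) and without KO library 3 or WT library 2.

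The adaptors likewise overlapped. Ubash3a encodes a lymphocyte protein that binds Cbl and limits TCR signalling, and it was at 467, 807, 862 and 542 in KO libraries 1 to 4, against 531, 501, 224 and 715 in WT libraries 1 to 4. WT library 3 was the lowest, and the log2 difference was 0.51 (SE 0.42) with all libraries and 0.17 without that one. Pag1 encodes a transmembrane adaptor that holds Csk near Lck. It was at 2170, 5711, 3776 and 4286 in KO libraries 1 to 4, against 2987, 2576, 4275 and 5320 in WT libraries 1 to 4, with a log2 difference of 0.05 (SE 0.28) that was -0.01 under quantile normalization and -0.06 with sample weights. Its sign turned on single libraries, from -0.15 without KO library 2 and -0.12 without WT library 2 to 0.31 without KO library 1.

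Levels per kilobase of merged exon allow only a rough comparison between genes, since the length counts exons of all annotated transcripts. On this scale Cbl led with a median of 905 over the 8 libraries. It was followed by Ptpn22 at 566, Pag1 at 420, Dgka at 317 and Cblb at 296. Ptpn2 at 258, Ptpn6 at 253, Ptpn7 at 150 and Dgkz at 135 came next, and Ubash3a was lowest at 47.7. All neighbours in this order overlapped in range except Dgkz and Ubash3a, whose libraries did not. Ptpn22 came near Cbl in KO libraries, at 808 ± 157 per kilobase against 963 ± 92.4 for Cbl, and lay below it in WT libraries, at 344 ± 149 against 817 ± 177 (SD, n = 4 each). Within groups Ptpn2 and Cbl varied least between libraries, with SDs of 0.23 and 0.26 in log2 value, and Ptpn7 and Dgka most, at 1.16 and 0.92.

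**Figure D2:**
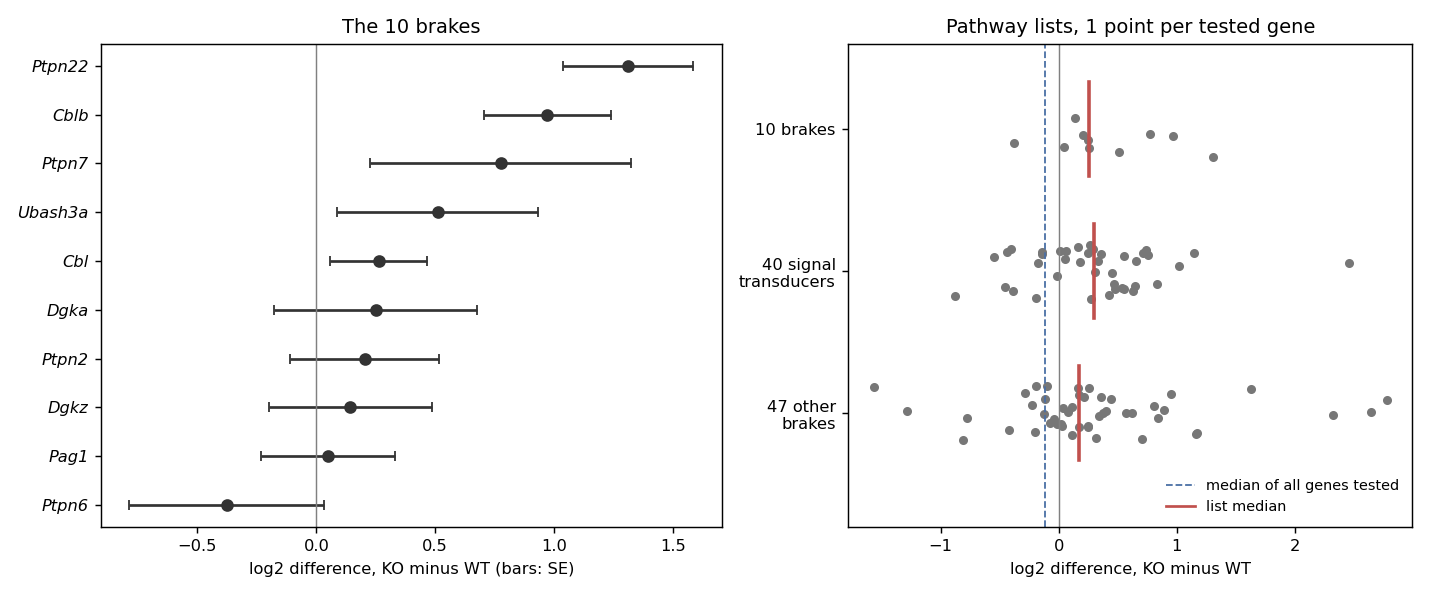
Left, log2 difference (KO minus WT) of each brake with its SE from the fit over all genes. Right, the same quantity for the 10 brakes, 40 signal transducers and 47 other brakes, 1 point per tested gene, with list medians of 0.26, 0.30 and 0.17 and the median of all genes, -0.12, as a dashed line.

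Genes of the machinery on which the brakes act did not pass the test. They were listed with earlier results of these data known, so their counts are given as a description. Of 40 signal transducers, 0 passed limma's adjusted p of 0.05 in either direction, while 5 were higher and 0 lower at an unadjusted p below 0.05, against 3.21% and 3.49% of all genes, or 6.70% in either direction. Their median log2 difference was 0.30, with 29 above 0, and leaving out WT library 2 gave 0.07, KO library 3 gave 0.13 and WT library 4 gave 0.46. The smallest p among them belonged to Malt1, a protease that acts between the antigen receptor and NF-kappaB (log2 difference 0.84, SE 0.26, limma adjusted p = 0.355). Pik3r1, the regulatory subunit of PI3 kinase, followed at 0.63 (SE 0.22, limma adjusted p = 0.573). Lck, the main kinase opposed by Ptpn22 and the most abundant transducer, was at 5893, 12144, 11884 and 9077 in KO libraries 1 to 4, against 6255, 3132, 7092 and 7070 in WT libraries 1 to 4 (log2 difference 0.74, SE 0.27, limma adjusted p = 0.618). Like Ptpn22 it was lowest in WT library 2, and its groups overlapped through KO library 1. By branch, all 6 Src and Syk family kinases were above 0 with a median of 0.63, and 10 of 13 genes of the Lat complex were, with a median of 0.31. The diacylglycerol arm, which Dgka and Dgkz oppose, had 7 of 10 genes above 0 and a median of 0.17. The calcium arm had 4 of 7 and 0.29, and PI3 kinase signalling 2 of 4 and 0.06. Among all genes 43.4% were above 0. Several of the counted genes, Zap70, Tespa1 and Lat among them, were worth less than 1 fragment in some libraries.

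A further 49 genes that restrain signalling were listed, likewise with earlier results of these data known. Of 47 tested, 0 passed limma's adjusted p of 0.05, while 7 were higher and 0 lower at an unadjusted p below 0.05. Among all genes 0.236% passed the adjusted threshold, and 3.21% were higher and 3.49% lower at the unadjusted one. The median log2 difference of the 47 was 0.17, with 32 above 0, against 43.4% of all genes. That median was 0.05, 0.06 and 0.28 on leaving out WT library 2, KO library 3 or WT library 4 in that order. Tnfaip3, the ubiquitin-editing enzyme A20 that limits NF-kappaB, came closest. It was at 15630, 21408, 27796 and 20648 in KO libraries 1 to 4, against 9050, 10774, 9743 and 14529 in WT libraries 1 to 4. Its groups did not overlap, and its log2 difference of 0.95 (SE 0.22) missed the threshold (limma adjusted p = 0.0922). Without single libraries that adjusted p ranged from 0.0258 to 0.509, and it was below 0.05 without WT library 4. Cish, a SOCS family protein induced by cytokines and by the TCR, had a log2 difference of 1.18 (SE 0.39, limma adjusted p = 0.510). Sla2, an adaptor that helps Cbl remove TCR complexes, was at 2.64 (SE 0.89, limma adjusted p = 0.515), and in WT libraries 1 and 2 its values correspond to 0.38 and 0.40 of a fragment. Ptprc, the CD45 phosphatase that both activates and restrains Lck and the most abundant gene of this list, was at 0.25 (SE 0.28, limma adjusted p = 0.850). Csk, the kinase that Ptpn22 and Pag1 work with, was at 0.17 (SE 0.25), a gene named after its values were seen.

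Cytip and Cd3e had the profiles over libraries nearest to that of Ptpn22. Likeness was measured as the root mean square difference between log2 profiles over the 8 libraries, each centred on its own mean, among 10681 named genes with a mean of at least 50. Cytip, a scaffold protein of leukocytes, was closest at 0.158, followed among others by Cd3e, a chain of the TCR complex, at 0.209, Mex3b, an RNA-binding protein, at 0.256 and Nkg7, a cytotoxic granule protein, at 0.264, where the median gene was at 1.05. Cblb lay at 0.223, and 2 of the candidates were closer than it. The other brakes were farther off, between 0.577 for Cbl and 1.08 for Ptpn6. The log2 differences of these genes were 1.21 for Cytip, 1.31 for Cd3e, 0.96 for Mex3b and 1.54 for Nkg7, which the choice by likeness to Ptpn22 fixes in part.

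**Figure D3:**
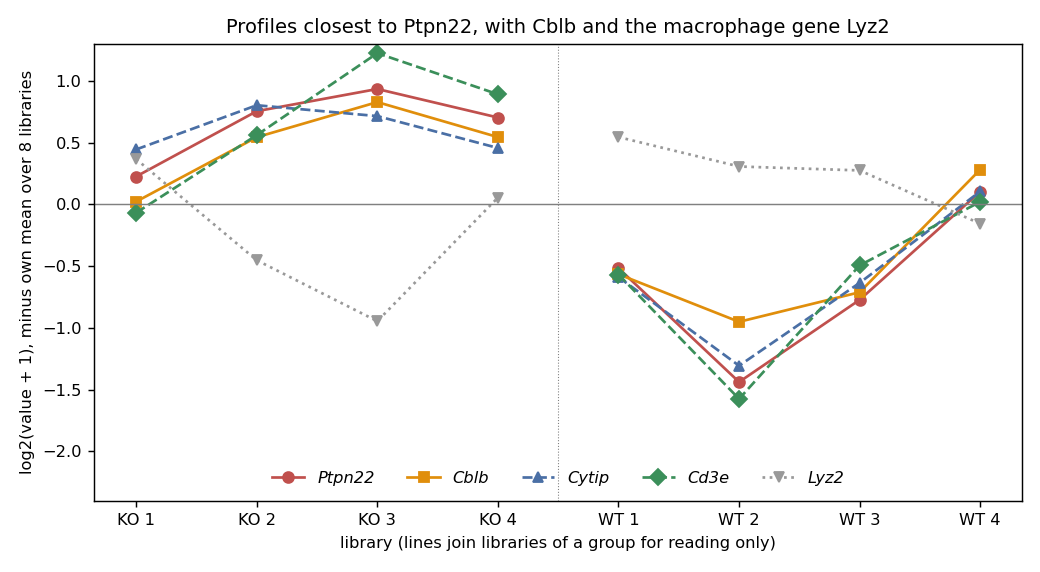
log2(value + 1) of Ptpn22, Cblb, Cytip, Cd3e and Lyz2 in each library, with KO left of WT, each gene centred on its mean over the 8 libraries. Ptpn22, Cytip and Cd3e are lowest in WT library 2 and lower in KO library 1 than in the other KO libraries, while the macrophage gene Lyz2 is lowest in KO library 3.

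Many cell type markers also stood higher or lower in KO libraries, given here without a test. Cd3e, which the sort used as a protein, was at 2587, 4002, 6339 and 5032 in KO libraries 1 to 4, against 1829, 909, 1925 and 2752 in WT libraries 1 to 4. Of 10 T cell markers 9 were above 0 and Cd3d was below, with a median log2 difference of 0.82 and a summed level of 15007 to 33033 in KO and 4686 to 19530 in WT. Trac, the constant region of the TCR alpha chain, had near equal means in the groups, at 1028, 1302, 2730 and 1631 in KO libraries 1 to 4, against 1843, 871, 1744 and 2091 in WT libraries 1 to 4, with a log2 difference of 0.0068 (SE 0.33). All 9 macrophage markers were below 0, with a median of -0.45 and a summed level of 101620 to 235678 in KO and 180769 to 276567 in WT. Of 8 dendritic cell markers 6 were above 0, and the summed level of 2464 to 4645 in KO did not overlap that of 1138 to 1650 in WT. Ccr7 and Itgax had the largest means of this list, at 1218 and 808 in KO and 468 and 420 in WT. Zbtb46 at -0.72 and Batf3 at -1.36 were below 0. Flt3, Clec9a and Siglech were also worth less than 1 fragment in some libraries. Of 4 tested B cell markers 3 were above 0, with a median of 0.95. The summed level of this list was 1309 to 2592 in KO and 457 to 1426 in WT. Igkc and Pax5 did not overlap between the groups, on an estimated 0.92 to 2.44 and 0.70 to 2.76 fragments in WT libraries. Ighm at 0.15 and Ms4a1 at -0.78 overlapped. NK cell markers had 3 of 4 above 0 and a median of 1.36, with summed levels of 393 to 914 in KO and 167 to 770 in WT. These 4, Ncr1, Klrb1c, Eomes and Klre1, were each worth less than 1 fragment in at least 1 library. Fibroblast markers had 7 of 8 below 0 and a median of -0.64, with summed levels of 3902 to 22404 in KO and 8760 to 21216 in WT. Of 5 markers of CD4 and regulatory T cells, Ikzf2 and Il2ra made up nearly all of the summed level of 4703 to 7007 in KO and 1931 to 2942 in WT. The defining gene Cd4 was at 70.5, 11.01, 94.8 and 122 in KO libraries 1 to 4, against 169, 0, 35.5 and 42.6 in WT libraries 1 to 4, and its groups overlapped. Foxp3 and Cd40lg were at 0 in most libraries. No T cell or macrophage marker was at 0 in any library, but Cd3d, Cd247, Cd2 and Trbc1 were worth less than 1 fragment in WT library 2. The part of the cell types listed here in the differences of the brakes was not tested.

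Set against the T cell genes Cd3d, Cd3e and Cd3g, the difference in Ptpn22 was smaller. The remainder depends on the genes chosen. The other T cell markers had log2 differences from 0.0068 for Trac to 1.77 for Cd247, and the brakes were not set against them. Subtracting the mean log2 of these 3 genes in each library left 0.86 for Ptpn22 and 0.52 for Cblb, and 4 of the 10 brakes above 0. That mean gives Cd3d the same weight as Cd3e, although Cd3d was worth less than 1 fragment in KO libraries 1 and 2 and in WT library 2. With the summed value of the 3 genes instead, a scale chosen after seeing the data, Ptpn22 was at 0.18 and Cblb at -0.16. The remaining 8 lay between -1.50 for Ptpn6 and -0.35 for Ptpn7. Most of that sum was Cd3e, with means of 4490 in KO and 1854 in WT. Cd3g was at 1270 and 728, and Cd3d at 126 and 172. The profile of Cd3e was among those nearest to Ptpn22, so a small remainder for Ptpn22 was partly fixed beforehand. The ratio of Ptpn22 to summed Cd3 genes was 1.39, 1.08, 0.772 and 0.816 in KO libraries 1 to 4, against 0.926, 1.09, 0.623 and 0.905 in WT libraries 1 to 4, and the groups overlapped. Pag1 gave ratios of 0.755, 1.06, 0.446 and 0.628 in KO libraries 1 to 4, against 1.16, 2.22, 1.33 and 1.31 in WT libraries 1 to 4, so each KO library was below each WT library. Ptpn6 also had no overlap, with a mean ratio of 0.0966 ± 0.0207 for KO and 0.337 ± 0.290 for WT (SD, n = 4 each). On this ratio scale 9.17% of all tested genes had every KO library below every WT library and 0.223% every KO library above, the log2 of the summed Cd3 genes being itself 1.13 higher in KO. Subtracting the mean log2 of 9 macrophage markers had the opposite effect, with 10 of 10 brakes above 0, Ptpn22 at 1.74 and Cblb at 1.40. Each subtraction lowers the difference of every gene by that of the index itself. This was 0.46 for the mean log2 of the Cd3 genes, 1.13 for their sum and -0.43 for the macrophage markers. The distance of the brakes from other genes stayed the same, so the counts above 0 follow from the shift. The share of all genes above 0 on these scales was not counted.

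**Figure D4:**
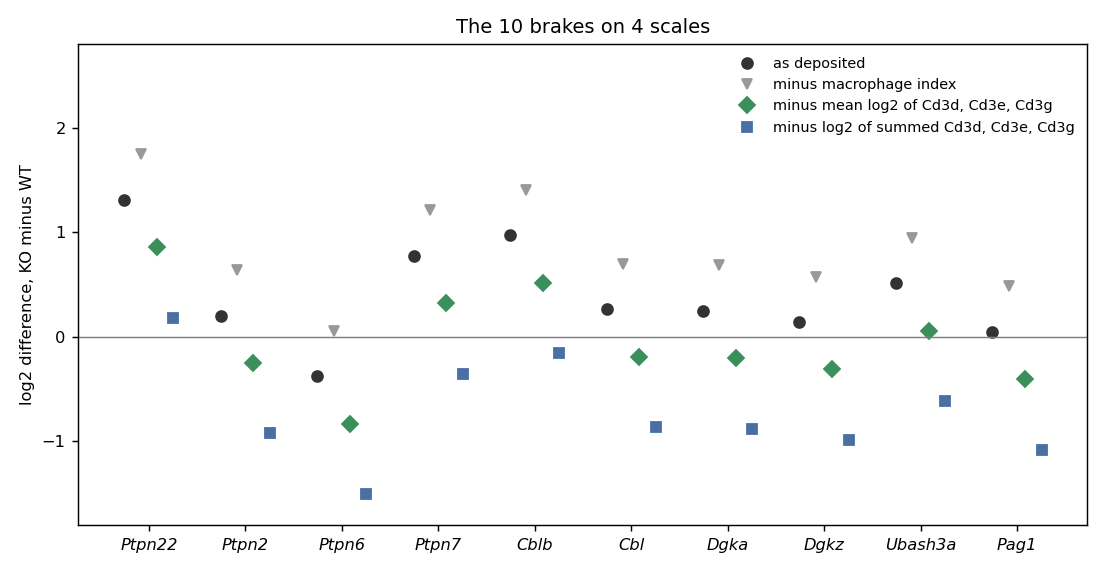
log2 difference (KO minus WT) of each brake as deposited and after subtracting, in each library, the macrophage markers or the Cd3d, Cd3e and Cd3g genes as a mean of log2 values or as the log2 of their sum. Ptpn22 stands at 1.31, 1.74, 0.86 and 0.18 on the 4 scales, and it is the only brake above 0 on the last. Each subtraction moves all brakes by the same amount.

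Differences between libraries of the same group were not used in drawing up the list and could be tested. Deviations from the group mean were related to the T cell index, the mean log2 of Cd3d, Cd3e and Cd3g, and to the macrophage index, in 20 relations over 8 libraries with exact two-sided permutation tests over all reorderings within groups. With the T cell index r was positive for all 10 brakes, the highest being Ptpn7 (r = 0.83, exact p = 0.0625, rho = 0.62, exact p = 0.0885) and Ptpn22 (r = 0.78, exact p = 0.0399, rho = 0.76, exact p = 0.0660). None of the 20 relations passed Benjamini-Hochberg adjustment, with an adjusted p of 0.405 for both genes (rho 0.354 for both). Without KO library 1 and WT library 2, the 2 libraries farthest from the median of the index, r was 0.06 for Ptpn7 and 0.23 for Ptpn22, so the relations of these 2 genes rest on those libraries. Among the other brakes r then ranged from -0.38 for Pag1 to 0.89 for Ptpn6, which were at 0.49 and 0.33 with all libraries. With the macrophage index r lay between -0.62 for Dgka (exact p = 0.181, rho = -0.64, exact p = 0.146) and 0.12 for Ptpn7 (exact p = 0.800, rho = -0.12, exact p = 0.752). With the summed Cd3 genes, added after seeing the data, Ptpn22 gave r = 0.89 (exact p = 0.0104, adjusted over the 10 brakes 0.0694, rho = 0.79, exact p = 0.0625) and r = 0.61 without the same 2 libraries. Most of this sum was Cd3e, a gene near to Ptpn22 in profile over the same libraries, so a high r was partly fixed beforehand.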

How the data were processed

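CD8 T cell sorts from tumours, 4 libraries each for KO and WT hosts, were profiled by bulk RNA-seq of total RNA after ribosomal RNA depletion. Tools listed in the submitters' processing notes, without roles, are STAR 2.7.8a, Partek and the authors' DESeq2, and the build is mm39. The deposited signal is, per the table's name, a count per gene that the authors normalized with DESeq2, and strand use is not given in the sources used here, so overlapping genes cannot be told apart. Low values were multiples of a step worth 1 read, with 81.7% to 88.1% of values of up to 500 reads whole within 0.02 reads. The rest were fractions, so whole reads could not be recovered and count models were left out. Depth was the column sum over that step. Fragment numbers were estimated, under Poisson sampling, from how many genes averaging 20 to 500 across the remaining libraries had under 3 reads. Intervals from read counts are not given, since reads copied from a fragment are not independent.

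The limma fit (3.58.1, R 4.3.3) used log2(value + 1) of genes whose mean reached 10, with an intensity trend, KO against WT, two-sided, with Benjamini-Hochberg adjustment over all 16120 genes and a threshold of 0.05. The model was tested on simulated data. Lengths are merged exons of GENCODE M21, and positions are those of the deposited table. Promoter sequences are RefSeq's (GRCm38.p6). The 10 genes and the pathway and marker lists were chosen with earlier results of these data known. Named genes besides the brakes were, per pathway list, any past the threshold, the 3 with the smallest p and the most abundant, then the 5 nearest to Ptpn22, of which 1 is not reported here, Mtdh and markers. Replicate numbers did not pair the libraries: same-numbered KO and WT libraries had correlations of deviations of 0.02 to 0.08 over genes. Alternatives changed the pseudocount, the minimum mean or the scaling, added sample weights, robust hyperparameters or a replicate block, or omitted libraries. Scales relative to summed Cd3 genes and the joint omission of KO library 1 and WT library 2 were added after seeing the data. The labels call the libraries biological replicates without saying whether animals were pooled.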

Additional observations from a re-analysis of the deposited data

Results flagged for a closer look

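Among 46 groups of 4 libraries examined, for the brakes, Mtdh and the other named genes, 1 held a library far from the rest. Cish in KO library 4 was at 541, while the other KO libraries lay between 948 and 1027, and WT libraries lay between 254 and 554. Chance flags about 1 in 20 such groups.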

How the results depend on the processing

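The log2 differences of Ptpn22 (1.27 to 1.31) and Cblb (0.93 to 0.998) stayed positive under the 10 alternatives that change the pseudocount, minimum mean, scaling, block, weights or hyperparameters. The median of the 10 brakes was 0.22 to 0.26 under these and 0.05 to 0.49 without single libraries. It was -0.87 relative to summed Cd3 genes, a scale that lowers the difference of every gene by 1.13. Of all genes tested 38 passed, against 63 with a pseudocount of 10, 15 with a minimum mean of 50, 112 with sample weights and 7 to 70 without single libraries. With the replicate block 0 passed and Mtdh was at -1.23 (limma adjusted p = 0.0627). Mtdh also missed the threshold with a minimum mean of 50 (-1.23, limma adjusted p = 0.0945), and it was at -1.38 to -1.04 without single libraries. Of the separate list of 47 tested other brakes, those past the threshold numbered 1 with a pseudocount of 10, no minimum mean or robust hyperparameters, 2 with sample weights, and 0 to 1 without single libraries. Signal transducers past it numbered 0 in every alternative run.

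Some within-group r values changed sign. With the macrophage index Cbl was at 0.037 with TMM and 0.059 with upper quartile scaling, and Ptpn2 at 0.016 with upper quartile scaling and 0.045 with quantile normalization. Without single libraries r with that index ranged from -0.47 to 0.20 for Cbl, -0.30 to 0.52 for Ptpn2, -0.62 to 0.18 for Dgkz and -0.46 to 0.35 for Ptpn7, and r of Ubash3a with the T cell index from -0.19 to 0.45. The cause was not tested. Fragments limit the scarce brakes: Ptpn2, Ptpn6, Ptpn7, Dgka, Dgkz and Ubash3a rest on under 10 in some libraries.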
